A study of Mus musculus with 2 samples.

Results

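The cells described here are the non-T cells found in spleens of transplanted mice whose cells were labelled as T cells, 126 of 2815 kept cells. A cell was kept if at least 200 genes had a deposited value above 0.7 on the natural log scale. It was called a non-T cell if at least 3 of 16 panel genes of other lineages passed that value. The panel held 4 B and plasma cell genes (Cd79a, Jchain, Mzb1, Sdc1), 6 macrophage genes (Csf1r, Adgre1, C1qa, C1qb, Cd68, Lyz2), 4 endothelial genes (Ptprb, Esam, Kdr, Flt4) and 2 haemoglobin genes (Hbb-bt, Hba-a1). Each cell is named for the panel group with most genes above 0.7, and a tie, as in 4 anti-IL-2 cells (3 named macrophage-led and 1 erythroid-led), went to the group with the larger sum of values. Panel genes thus describe how the cells were chosen and are not results.

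Lethally irradiated wild-type BALB/C mice had received spleen and bone marrow cells of wild-type C57BL/6 mice through a vein. The recipients were given a monoclonal antibody against IL-2 (anti-IL-2), the cytokine that drives T-cell expansion, or tacrolimus, a calcineurin inhibitor, from day 0 to day 6, and single spleen cells were profiled on day 6 with a droplet 5′ kit. The labels describe the cells as donor T cells of the spleen. The values do not tell donor cells from recipient cells, so the origin of the non-T cells is unknown here.

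There was 1 library per treatment, so treatment and library cannot be told apart and no test was made. Brackets hold exact Clopper-Pearson 95% intervals, which cover counting error only. UMIs could be read back from the tacrolimus values, with a median of 17189 UMIs in B and plasma-led, 9242 in macrophage-led, 10996 in endothelial-led and 13293 in the other kept cells. The anti-IL-2 values had the form of batch-integrated data, with 13.9% of them below 0, and the labels do not describe that step. A share of anti-IL-2 cells above 0.7 is thus a share of shifted values, while above 0.7 means at least 1 UMI in the tacrolimus cells described here. Levels in UMIs per 10000 are given for tacrolimus cells only. The libraries shared 4 cell barcodes, and 0 of these were on non-T cells.

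The spleen filters blood and is a site of antibody production. Its red pulp macrophages engulf worn red cells and recycle their haem iron, and its sinus endothelium lines wide, leaky vessels through which blood cells pass. Plasma cells are the antibody-secreting end stage of B cells and enlarge the endoplasmic reticulum, where antibody chains are folded and joined.

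Non-T cells made up 71 of 1340 kept cells under anti-IL-2 (5.30%, 4.16 to 6.64) and 55 of 1475 kept cells under tacrolimus (3.73%, 2.82 to 4.83). Macrophage-led cells were the most numerous at this threshold, with 36 in the anti-IL-2 library (2.69%, 1.89 to 3.70) and 31 in the tacrolimus library (2.10%, 1.43 to 2.97). B and plasma-led cells numbered 25 under anti-IL-2 (1.87%, 1.21 to 2.74) and 17 under tacrolimus (1.15%, 0.673 to 1.84). Endothelial-led cells numbered 8 under anti-IL-2 (0.597%, 0.258 to 1.17) and 7 under tacrolimus (0.475%, 0.191 to 0.975). The intervals of the libraries overlapped for each of these lineages. The order of the 2 largest rests on the minimum of 3 panel genes. With at least 4, macrophage-led cells numbered 26 and B and plasma-led cells 11 under anti-IL-2, while under tacrolimus they numbered 13 and 15. The macrophage panel also has 6 genes and the B and plasma panel 4. Erythroid-led cells numbered 2 under anti-IL-2 and 0 of 1475 under tacrolimus, for which a limit of 3 cells allows a share of up to 0.203%.

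**Figure D1:**
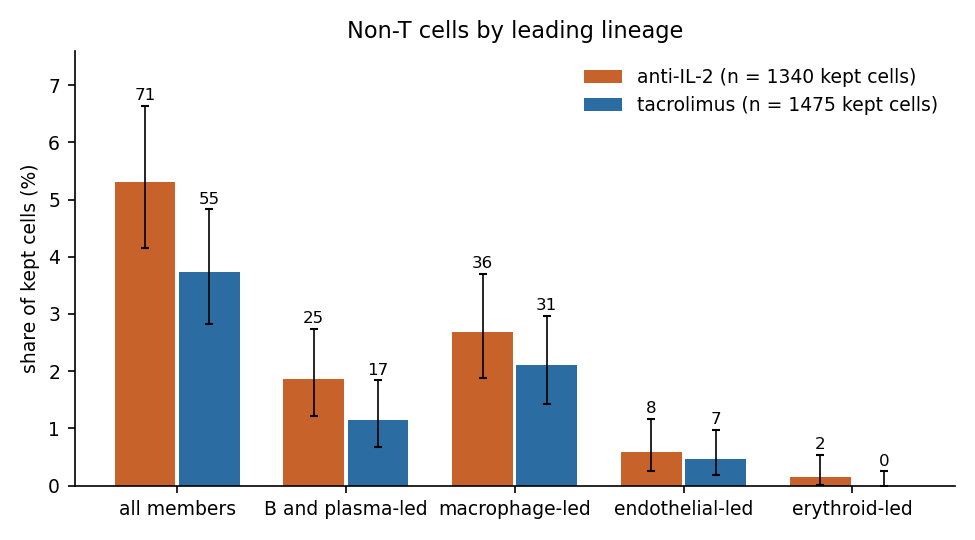
Share of kept cells (%, axis from 0) that were non-T cells, in all and by leading lineage, in the anti-IL-2 and the tacrolimus library, with exact 95% intervals and the number of cells above each bar. Macrophage-led cells form the tallest lineage bar in both libraries at a minimum of 3 panel genes (36 and 31 cells), and the intervals of the libraries overlap in every pair.

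The threshold fell in a thin tail of cells. Just outside it, 33 anti-IL-2 and 44 tacrolimus cells had exactly 2 panel genes above 0.7, and just inside it 26 and 20 cells had exactly 3. At least 2 T-cell genes were above 0.7 in 24 of the 33 and 39 of the 44 cells outside, and in 10 of the 26 and 9 of the 20 cells inside. Cd68, a lysosomal glycoprotein, was the panel gene most common in the other kept cells, at 23.9% under anti-IL-2 and 21.5% under tacrolimus. Jchain was above 0.7 in 2.13% and 1.13% of the other kept cells and C1qa in 1.58% and 2.18%, as background to the shares in the lineages. With Cd68 left out of the panel, a choice made after seeing the data, 64 anti-IL-2 and 46 tacrolimus cells passed.

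**Figure D2:**
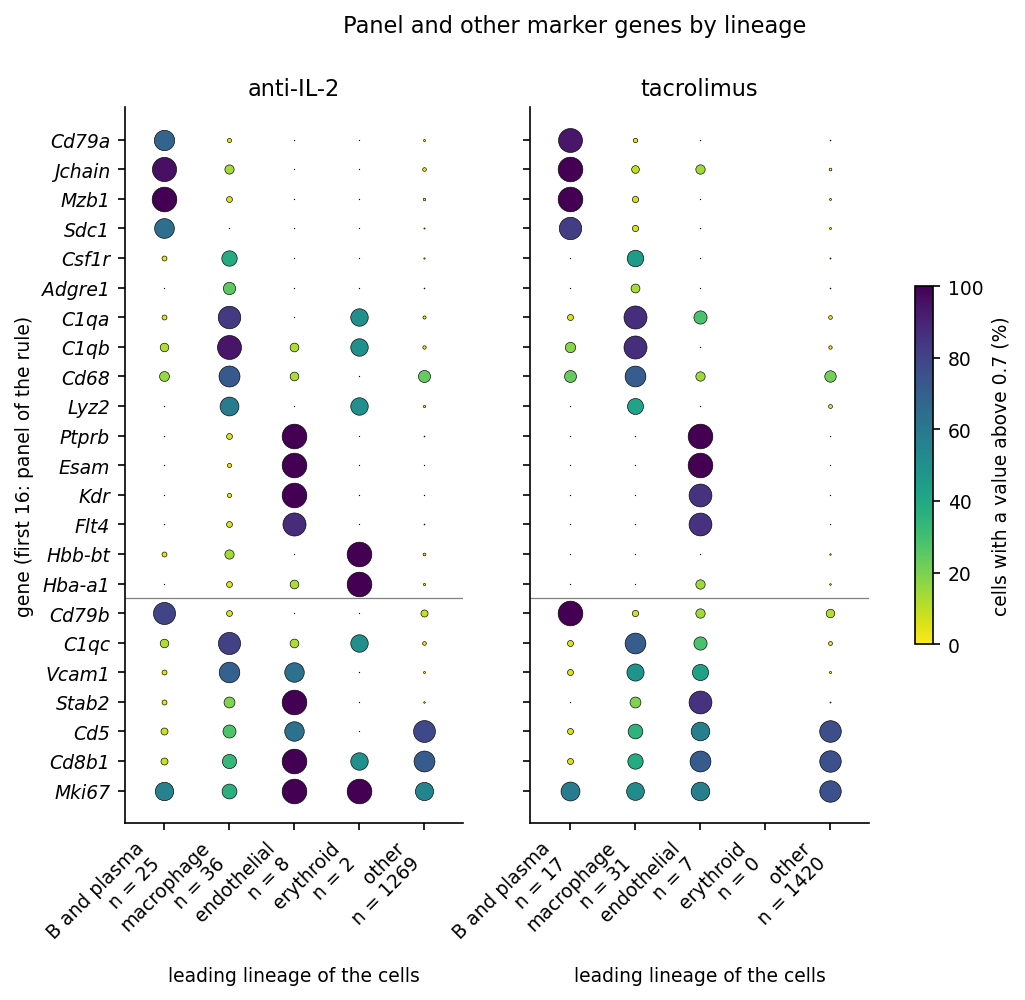
Share of cells (%) with a deposited value above 0.7, as dot area and colour, for the 16 panel genes above the line and 7 other marker genes below it, by leading lineage and in the other kept cells of each library. Outside the panel, Cd79b is frequent in B and plasma-led cells and C1qc in macrophage-led cells, and Cd5 and Cd8b1 are rare in B and plasma-led cells but present in part of the macrophage-led and endothelial-led cells.

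The label of T cell was checked against T-cell genes. Of 20 listed T-cell genes 5 were measured, the surface receptors Cd5, Cd4, Cd8a, Cd8b1 and Cd7. At least 2 of them were above 0.7 in 20 of 71 anti-IL-2 and 17 of 55 tacrolimus non-T cells, against 93.1% and 94.1% of the other kept cells. The label thus held for most other cells and for a minority of the non-T cells. B and plasma-led cells were nearly free of T-cell genes, with at least 2 of them in 2 of 25 cells under anti-IL-2 and 1 of 17 under tacrolimus.

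Macrophage-led and endothelial-led cells carried T-cell genes more often than that. At least 2 were above 0.7 in 12 of 36 anti-IL-2 macrophage-led cells (33.3%, 18.6 to 51.0) and 12 of 31 tacrolimus ones (38.7%, 21.9 to 57.8), and in 5 of 8 and 4 of 7 endothelial-led cells. Gzmb, a granzyme of cytotoxic T cells, was above 0.7 in 10 of 12 anti-IL-2 and 12 of 12 tacrolimus macrophage-led cells with at least 2 T-cell genes, against 3 of 24 and 2 of 19 of those with fewer. Mki67, a marker of dividing cells, was above 0.7 in 7 of 12 and 10 of 12 of the cells with T-cell genes, against 6 of 24 and 6 of 19. Anti-IL-2 endothelial-led cells showed no such split, with both genes in 5 of 5 cells with at least 2 T-cell genes and 3 of 3 with fewer. In tacrolimus endothelial-led cells Gzmb was in 4 of 4 and 1 of 3, and Mki67 in 4 of 4 and 0 of 3. The tacrolimus macrophage-led cells with T-cell genes held a median of 20193.5 UMIs, against 4301 UMIs in those with fewer. No doublet caller was run, and the part of doublets or free RNA in these cells was not tested.

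**Figure D3:**
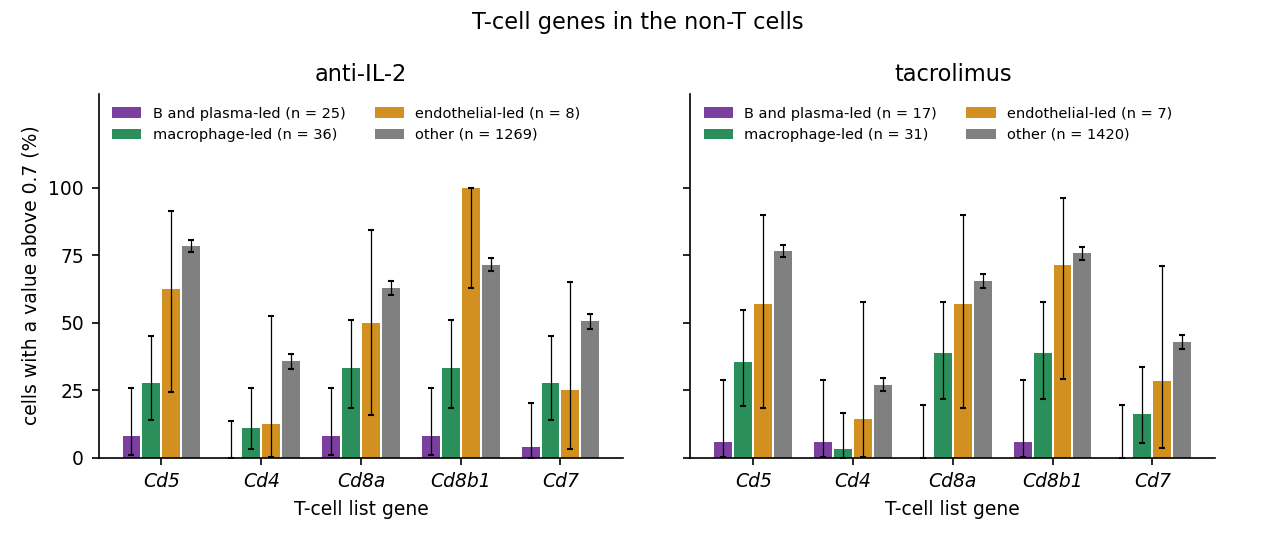
Share of cells (%, with exact 95% intervals) with a deposited value above 0.7 for the 5 measured T-cell genes, by leading lineage and in the other kept cells of each library. B and plasma-led cells lie at or below 8%, while Cd8b1 is above 0.7 in 33.3% of anti-IL-2 and 38.7% of tacrolimus macrophage-led cells.

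Genes outside the panel, 1984 in all, were compared with the other kept cells of the same library by a rule of size, not a test. A gene was called higher if it was in at least 25% of the lineage and at least 2-fold the share of the other cells, and lower if it was in at least 25% of the other cells and at most 0.5-fold. Tacrolimus cells were first thinned to 5000 UMIs, which left out 1 of 17 B and plasma-led, 10 of 31 macrophage-led, 1 of 7 endothelial-led and 38 of 1420 other cells. The 10 macrophage-led cells left out all had fewer than 2 T-cell genes. All 12 macrophage-led cells with at least 2 T-cell genes were thus among the 21 thinned ones, which carry T-cell genes more often than all 31. Thinning to 2000 UMIs, added after seeing the data, left out no non-T cell. Tacrolimus shares given out of 17, 31 or 7 cells are unthinned, and those out of 16, 21 or 6 are thinned to 5000 UMIs.

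B and plasma-led cells carried genes of antibody secretion. The rule favoured such cells, since a B cell with Cd79a as its only panel gene could not be chosen. Among the other kept cells, 7 under anti-IL-2 and 0 under tacrolimus had at least 3 of 8 measured B-cell genes above 0.7. The counts of plasma cell genes thus describe cells chosen in part by secretory genes. Of 21 measured plasma cell genes 10 were higher under anti-IL-2, 14 under tacrolimus and 10 in both, and 0 were lower. Over all genes 7.36% were higher under anti-IL-2, 8.97% under tacrolimus and 5.9% in both. The list's median share was 92.0% of B and plasma-led anti-IL-2 cells, against 42.8% of the other cells, and 93.8% of tacrolimus cells, against 23.4%. The median over all genes was 4%, against 2.44%, under anti-IL-2 and 0%, against 1.01%, under tacrolimus.

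The 10 genes higher in both libraries were the transcription regulators Irf4, Pou2af1 and Eaf2, the stress gene Trp53inp1, and Derl3, Fkbp11, Creld2, Edem1, Dnajb9 and Herpud1, which serve folding or disposal of proteins in the endoplasmic reticulum. Pou2af1, a B-lineage coactivator, was in 23 of 25 cells under anti-IL-2 and 15 of 16 under tacrolimus, against 5.04% and 0.579% of the other cells. Derl3, part of the route that discards misfolded proteins, was in 22 of 25 cells under anti-IL-2 and 13 of 16 under tacrolimus, against 2.44% and 0.217% of the other cells. Creld2, a folding factor induced by stress of the endoplasmic reticulum, was in 23 of 25 cells under anti-IL-2 and 16 of 16 under tacrolimus, against 45.2% and 29.2% of the other cells. Creld2 was thus found in many other cells too. Its level ran between 1.5 and 80.9 UMIs per 10000 in B and plasma-led tacrolimus cells with a mean of 30.5, against a mean of 0.721 in the other cells.

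The promoters of Creld2 and Derl3 are shown because both genes were higher in both libraries and both promoters hold the letters of the endoplasmic reticulum stress response element, which stress-activated transcription factors bind in mammals. The element was searched on 2 strands as CCAAT, 9 free bases and CCACG in RefSeq promoters of build GRCm38.p6, each 300 bases from 250 bases before to 50 bases after a gene start. Capitals mark the element, which reads on the strand opposite to the gene in both. Creld2 lies at chr15:88819396-88819695 and Derl3 at chr10:75893148-75893447, both on the plus strand.
Creld2: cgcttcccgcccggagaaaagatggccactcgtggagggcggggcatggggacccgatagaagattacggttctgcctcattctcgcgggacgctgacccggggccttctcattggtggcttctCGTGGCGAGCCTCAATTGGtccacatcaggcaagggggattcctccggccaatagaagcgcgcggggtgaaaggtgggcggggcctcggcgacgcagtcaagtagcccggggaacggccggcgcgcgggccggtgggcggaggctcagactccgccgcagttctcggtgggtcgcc
Derl3: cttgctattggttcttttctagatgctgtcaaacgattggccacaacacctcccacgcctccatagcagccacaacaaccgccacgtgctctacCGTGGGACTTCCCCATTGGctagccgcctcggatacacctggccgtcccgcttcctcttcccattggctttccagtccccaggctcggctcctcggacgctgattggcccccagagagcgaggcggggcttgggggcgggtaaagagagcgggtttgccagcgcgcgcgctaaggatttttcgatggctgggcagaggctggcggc
The letters occurred in 39 of 32851 promoters (0.119%). Among the plasma cell list, 18 genes had a promoter entry, with 24 promoters, and 4 genes held the element, namely Creld2, Derl3, Hsp90b1 and Hspa5. This counts genes and not promoters, and the list includes genes of endoplasmic reticulum stress. It is therefore not comparable with the share of all promoters. A match describes letters and shows no binding.

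Xbp1, the transcription factor that drives the secretory state, was in 24 of 25 cells under anti-IL-2 and 15 of 16 under tacrolimus, against 50.5% and 29.7% of the other cells, so it met the rule under tacrolimus only. Its mean level was 33.5 UMIs per 10000 in B and plasma-led tacrolimus cells, against 0.753 in the other cells. Hsp90b1 and Hspa5, major chaperones of the endoplasmic reticulum, met the rule in neither library because most other cells carried them as well. Hsp90b1 averaged 98.7 UMIs per 10000 in B and plasma-led tacrolimus cells, against 6.43, and Hspa5 averaged 24.4, against 3.28. For these genes of general use the difference lay in the level and not in the share of cells.

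B-cell receptor genes were present beside them. Of 8 measured B-cell genes 4 were higher in both libraries (Cd79b, Fcrla, Cd24a and Blnk) and 0 were lower. Over all genes 5.9% were higher in both. Cd79b, the partner of Cd79a in the receptor, was above 0.7 in 20 of 25 cells under anti-IL-2 and 17 of 17 under tacrolimus, against 8.12% and 11.9% of the other cells. Blnk, an adaptor of that receptor, was in 22 of 25 anti-IL-2 and 14 of 16 thinned tacrolimus cells (87.5%, 61.7 to 98.4), against 0.788% and 0% of the other cells. Ms4a1 (CD20), a marker of mature B cells that plasma cells lose, was above 0.7 in 4 of 25 anti-IL-2 and 5 of 17 unthinned tacrolimus cells. Of the cells with Sdc1 (CD138), a plasma cell surface protein of the panel, 14 of 16 under anti-IL-2 and 10 of 14 under tacrolimus lacked Ms4a1. Of the cells without Sdc1, 7 lacked Ms4a1 and 2 had it under anti-IL-2, and 2 lacked it and 1 had it under tacrolimus. Lack of Ms4a1 was thus not particular to cells with Sdc1.

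Single cells spread widely over the plasma cell list, which holds no panel gene. The 21 plasma cell genes summed to between 11.4 and 895 UMIs per 10000 in the 17 tacrolimus cells with a median of 364, against a median of 22.7 and a highest sum of 81.5 in the other cells. The lowest B and plasma-led sums therefore lay within the range of the other cells, while the median lay above it.

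Genes of antigen presentation were found in these cells, which held between 1 and 8 of 9 measured MHC class II genes in each library. Cd74, the invariant chain that escorts MHC class II, was above 0.7 in 25 of 25 cells under anti-IL-2 and 17 of 17 under tacrolimus, against 12% and 7.04% of the other cells. Of 9 measured MHC class II genes 4 were higher in both libraries, Cd74 with H2-Aa, H2-Ab1 and H2-Eb1, where 5.9% of all genes were. T-cell genes were lower, 5 of 5 under anti-IL-2 and 4 of 5 under tacrolimus, where 7.21% and 6% of all genes were lower. Gzma, a granzyme of cytotoxic cells, was in 3 of 25 cells under anti-IL-2 and 0 of 16 under tacrolimus, against 81.3% and 71.2% of the other cells. Of 28 cell cycle genes 3 were lower under anti-IL-2 and 14 under tacrolimus, with 1 in both (Stmn1) and 0 higher, where 3.73% of all genes were lower in both. Of the 28, 27 reached 25% of B and plasma-led or other cells in each library, against 682 and 554 of 1984 genes. The cell cycle counts are thus not like for like with the shares of all genes. The list's median share of the other cells was 49.4% and 47.4%, so few could be 2-fold higher. Mki67 was above 0.7 in 14 of 25 cells under anti-IL-2 and 10 of 17 under tacrolimus, against 54.5% and 75.8% of the other cells. The difference between the libraries was not tested.

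The 12 genes outside the panel with the largest ratio of shares in tacrolimus B and plasma-led cells were Alpl, Ckap4, Fcrla, Rhobtb1, Blnk, Derl3, Bhlha15, Dok3, A530040E14Rik, Aldh3b1, Cpeb3 and Dennd5b. All but Rhobtb1, Dok3 and A530040E14Rik were also higher under anti-IL-2, where 7.36% of all genes were. Ckap4, an anchor of the rough endoplasmic reticulum, was in 23 of 25 cells under anti-IL-2 and 14 of 16 under tacrolimus, against 0.867% and 0.145% of the other cells. Bhlha15 (Mist1), a regulator of secretory cell structure, was in 10 of 25 cells under anti-IL-2 and 4 of 16 under tacrolimus, against 0.394% and 0.0724% of the other cells. Alpl, tissue-nonspecific alkaline phosphatase, was in 15 of 25 cells under anti-IL-2 and 7 of 16 under tacrolimus, against 0.709% and 0.0724% of the other cells. At 2000 UMIs, where 5.24% of all genes were higher, 3 of the 12 still met the rule (Ckap4, Blnk and Derl3). A530040E14Rik, annotated as antisense, was in 6 of 16 cells at 5000 UMIs and 0 of 17 at 2000, and the labels do not say whether counting used strand.

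**Figure D4:**
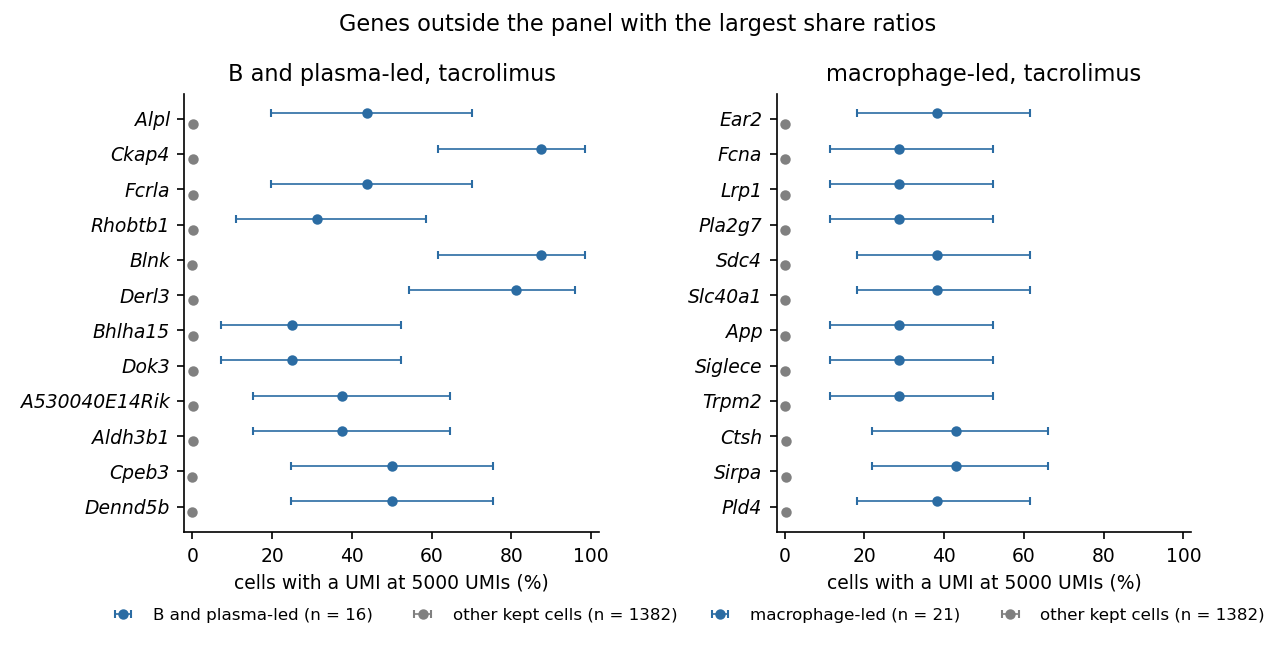
Share of tacrolimus cells (%) with a UMI after thinning to 5000 UMIs, with exact 95% intervals, for the 12 genes with the largest share ratios in B and plasma-led cells (16 cells) and in macrophage-led cells (21 cells), beside 1382 other cells. The genes were picked by this ratio, so the gap is a description, and all points of the other cells lie at or below 0.217%.

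Macrophage-led cells carried genes of tissue macrophages. Of 32 measured macrophage genes 24 were higher under anti-IL-2, 15 under tacrolimus and 15 in both, and 0 were lower. Over all genes 9.43% were higher under anti-IL-2, 5.19% under tacrolimus and 4.03% in both. The list's median share was 51.4% of anti-IL-2 macrophage-led cells, against 1.06% of the other cells, and 23.8% of tacrolimus ones, against 0.362%. At 2000 UMIs, with all 31 cells, 20 of the 32 were higher where 4.54% of all genes were.

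Complement C1q tags debris for uptake. C1qc, its chain outside the panel, was above 0.7 in 29 of 36 cells under anti-IL-2 (80.6%, 64.0 to 91.8) and 22 of 31 under tacrolimus (71.0%, 52.0 to 85.8), against 2.13% and 2.46% of the other cells. C1qa and C1qb are panel genes, and C1qb was also above 0.7 in 28 of the 29 and 20 of the 22 cells. The C1qc share is thus not independent of how the cells were chosen. The genes of its 3 chains are neighbours on the minus strand of chromosome 4 in mm10 (GENCODE annotation), C1qb at chr4:136880129-136886187, C1qc at chr4:136889804-136893065 and C1qa at chr4:136895917-136898803. C1qc levels in tacrolimus cells ran between 0 and 62.8 UMIs per 10000 with a median of 11.4.

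Genes of red cell clearance and iron recycling followed. Spic, the transcription factor of red pulp macrophages, was above 0.7 in 20 of 36 cells under anti-IL-2 and 19 of 31 under tacrolimus, against 1.26% and 0.563% of the other cells. Slc40a1 (ferroportin), the iron exporter, was in 22 and 17 cells, against 1.34% and 0.634%. Hmox1, which breaks down haem, was in 30 and 23 cells, against 12% and 17.2%. These genes were found in a majority of macrophage-led cells of both libraries, and Hmox1 was the least restricted to them. Vcam1, an adhesion molecule of red pulp macrophages, was in 25 and 15 cells, against 0.552% and 0.634%. Cd5l, a scavenger protein of tissue macrophages, was in 18 and 12 cells, against 0.552% and 0.141%. Thinned to 2000 UMIs, Spic was in 12 of 31 and Vcam1 in 14 of 31 tacrolimus macrophage-led cells, against 0% and 0.0704% of the other cells. Of 8 measured genes of iron and haem handling 3 were higher in both libraries, Slc40a1 and Hmox1 with Blvrb, which reduces a haem breakdown product. Slc40a1 and Hmox1 are also on the macrophage list and were counted there too. Over all genes 4.03% were higher in both.

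The macrophage-led cells with few T-cell genes held more of these genes. Slc40a1 was above 0.7 in 16 of 24 anti-IL-2 cells with fewer than 2 T-cell genes and 6 of 12 with at least 2, and in 14 of 19 and 3 of 12 tacrolimus cells. Vcam1 was in 18 of 24 and 7 of 12 anti-IL-2 and in 12 of 19 and 3 of 12 tacrolimus cells. Spic was in 17 of 24 and 3 of 12 anti-IL-2 and in 12 of 19 and 7 of 12 tacrolimus cells, closer to each other in the tacrolimus library. Panel genes are given as a description only, since the rule shapes their frequency. Csf1r, the receptor of macrophage colony-stimulating factor, was in 14 of 36 cells under anti-IL-2 and 14 of 31 under tacrolimus, and Adgre1 (F4/80) in 9 of 36 and 4 of 31.

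Single genes of the macrophage list differed in frequency. Tyrobp, an adaptor of activating receptors, was above 0.7 in 32 of 36 cells under anti-IL-2 and 26 of 31 under tacrolimus, against 2.52% and 4.01% of the other cells. Fcer1g, the shared signalling chain of Fc receptors, was in 32 and 26 cells, against 7.72% and 16.3%. Fcgr3 and Fcgr4, receptors for antibody-coated targets, were in 30 and 23 of 36 anti-IL-2 cells and in 18 and 18 of 31 tacrolimus cells, while the high-affinity receptor Fcgr1 was in 7 and 2. Among the rarer ones, Timd4, a receptor for dying cells, was in 0 of 36 and 3 of 31, Siglec1 in 4 and 5, and Cx3cr1 in 1 and 1. Of 15 measured monocyte and neutrophil genes 0 were higher in either library, where 9.43% and 5.19% of all genes were. Only 3 of the 15 reached 25% of macrophage-led or other cells in each library, so the rule could call few. The list's median share was 8.33% of anti-IL-2 macrophage-led cells, against 0.315% of other cells, and 4.76% of tacrolimus ones, against 0.0724%. Single macrophage-led cells held up to 12 of the 15 under anti-IL-2 and 9 under tacrolimus, against 9 and 8 in other cells.

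Chemokines of the list were found at unlike frequencies. Ccl6 was above 0.7 in 32 of 36 cells under anti-IL-2 and 27 of 31 under tacrolimus, against 7.41% and 9.08% of the other cells, and its level ran between 0 and 270 UMIs per 10000 with a mean of 47.2 in tacrolimus macrophage-led cells. Ccl24, an eosinophil attractant, was in 28 and 22 cells, against 1.65% and 2.46%. Cxcl9, a T-cell attractant induced by interferon-gamma, was in 21 and 12 cells, against 0.709% and 1.41%. These were the 3 of 19 measured chemokine and cytokine genes higher in both libraries, where 4.03% of all genes were. Ccl8 was in 10 and 7 cells but reached 193 UMIs per 10000 in 1 tacrolimus cell.

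MHC class II was also carried, with 6 of 9 genes higher in both libraries, and Cd74 was above 0.7 in 30 of 36 cells under anti-IL-2 and 22 of 31 under tacrolimus, against 12% and 7.04% of the other cells. Of 12 lysosome and protease genes 5 were higher in both. Over all genes 4.03% were higher in both libraries in macrophage-led cells. The 12 genes with the largest share ratios under tacrolimus were Ear2, Fcna, Lrp1, Pla2g7, Sdc4, Slc40a1, App, Siglece, Trpm2, Ctsh, Sirpa and Pld4. They were picked by the tacrolimus ratio, so their tacrolimus call is not a result. All 12 were also higher under anti-IL-2, where 9.43% of all genes were. Ctsh, a lysosomal protease, was in 16 of 36 cells under anti-IL-2 and 9 of 21 under tacrolimus, against 0.630% and 0.217% of the other cells. Fcna, a ficolin that recognises microbial sugars, was in 21 and 6 cells, against 0.473% and 0.0724%. Sirpa, the receptor for CD47 that restrains engulfment, was in 19 and 9 cells, against 0.709% and 0.217%.

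Summed over the 32 macrophage genes, tacrolimus macrophage-led cells held between 0.840 and 744 UMIs per 10000 with a median of 83.3, against a median of 0.373 and a highest sum of 96.7 in the other cells. The ranges overlapped. Of 28 cell cycle genes 11 were lower under anti-IL-2 and 3 under tacrolimus, where 6.75% and 0.958% of all genes were lower. Of the 28, 27 reached 25% of macrophage-led or other cells in each library, against 746 and 503 of 1984 genes. The cell cycle counts are thus not like for like with the shares of all genes. T-cell genes were lower in 3 of 5 cases under anti-IL-2 and 0 under tacrolimus, and in 3 at 2000 UMIs, where 1.56% of all genes were lower. Genes of the exocrine pancreas, a neighbour of the spleen, were higher under anti-IL-2 in 4 of 28 cases (Ctrb1, Cela3b, Reg2 and Reg3b). Over all genes 9.43% were higher there. After thinning, 0 of the 28 reached 25% of macrophage-led or other tacrolimus cells, so the rule could not call any of them. In the anti-IL-2 cells, which were not thinned, 4 reached it. The pancreas counts of the libraries are thus not like for like. Ctrb1, a digestive protease precursor, was above 0.7 in 28 of 36 cells under anti-IL-2 and 13 of 31 under tacrolimus, against 37.8% and 36.7% of the other cells.

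Endothelial-led cells were few but rich in vessel genes. Of 36 measured endothelial genes 32 were higher under anti-IL-2, 28 under tacrolimus and 27 in both, and 0 were lower. Over all genes 31.1% were higher under anti-IL-2, 13.9% under tacrolimus and 12.1% in both. Sparc, a matrix protein, was above 0.7 in 8 of 8 cells under anti-IL-2 and 7 of 7 under tacrolimus, against 0.552% and 0.493% of the other cells. Plvap, which forms diaphragms of leaky vessels, was in 7 and 7 cells, against 0.315% and 0.211%. Stab2, a scavenger receptor of sinus endothelium in spleen and liver, was in 8 and 6 cells, against 0.315% and 0.141%. Cdh5, the cadherin of endothelial junctions, was in 8 and 5 cells, against 0.0788% and 0.141%. The 36 genes summed to between 47.3 and 978 UMIs per 10000 in the 7 tacrolimus cells, above the highest sum of 9.64 in the other cells.

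Single endothelial genes varied among the 7 tacrolimus cells. Fabp4, a fatty acid carrier of small vessels, reached 601 UMIs per 10000 in 1 cell and was at 0 in 3 of the 7 cells, so the mean of 87.7 rests on that cell. Gpihbp1, which holds lipoprotein lipase at the vessel wall, ran between 0 and 59.0, and Cd36, a fatty acid receptor, between 0 and 98.3. Genes of the interferon-gamma response were found as well, with 6 of 12 higher in both libraries, where 12.1% of all genes were. They were not particular to endothelial-led cells. In macrophage-led cells 3 of the 12 were higher in both libraries, where 4.03% of all genes were, and in B and plasma-led cells 0 were, where 5.9% of all genes were. Gbp4 and Iigp1, GTPases of that response, were above 0.7 in 7 of 7 tacrolimus cells each, against 29.2% and 2.11% of the other cells.

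The anti-IL-2 endothelial-led cells had values of another form. For Ptprb, 4 of the 8 cells lay between 1.49 and 1.60, for Kdr between 1.08 and 1.14, and for Fabp4 7 of 8 lay between 1.09 and 1.21 with the last at 3.78. A median of 12.6% of their values were exactly 0, against 42.4% in the other anti-IL-2 cells. Of 631 genes with a median above 0.7 in these cells, 70 had an interquartile range under 0.3, against 7 of 493 such genes in tacrolimus endothelial-led cells. The part of the authors' processing in this was not tested. With panel genes required above 2, added after seeing the data, 1 of the 8 cells remained. Sparc, between 4.0 and 5.55, and Igfbp7, a secreted vessel protein between 4.65 and 6.22, were above 2 in all 8 cells.

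**Figure D5:**
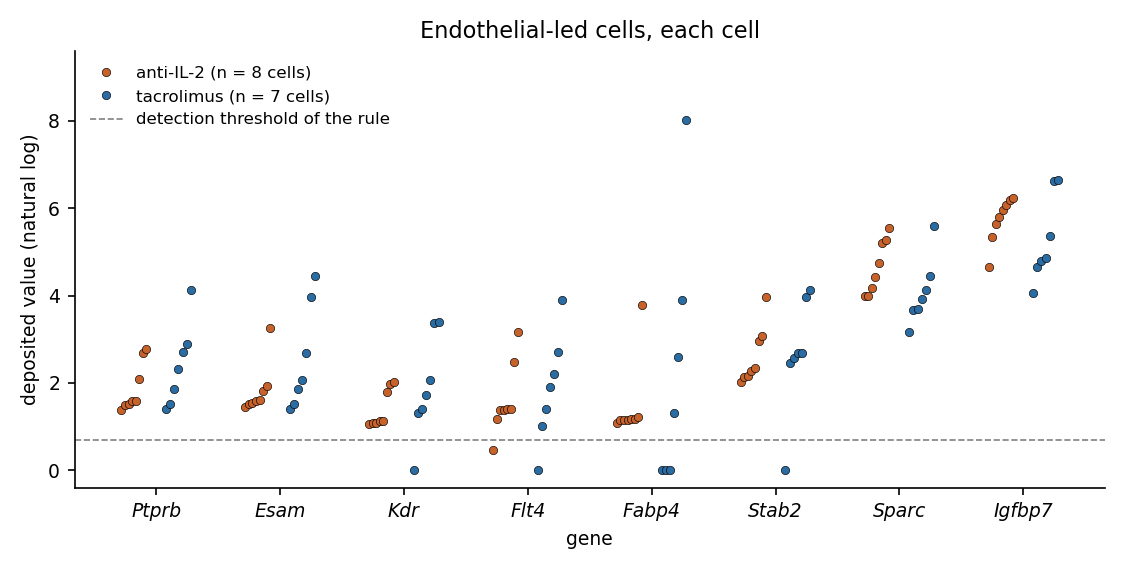
Deposited value (natural log) of 8 endothelial genes in each endothelial-led cell, 8 anti-IL-2 cells and 7 tacrolimus cells, with the threshold of 0.7 as a dashed line. Anti-IL-2 points of Ptprb, Kdr and Fabp4 crowd together, tacrolimus points of Fabp4 spread between 0 and 8.01, and Sparc and Igfbp7 lie at or above 3.17 in all cells.

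Lists of other cell types are read against 31.1% of all genes higher under anti-IL-2 and 13.9% under tacrolimus. Of 12 stroma genes 8 were higher under anti-IL-2 and 1 under tacrolimus, and of 32 macrophage genes 11 and 6 were. The macrophage counts lay near those shares, and the stroma count lay above under anti-IL-2 and below under tacrolimus. Cd8b1 was above 0.7 in 8 of 8 cells under anti-IL-2 and 5 of 7 under tacrolimus, against 71.6% and 75.8% of the other cells. The part of T-cell RNA in these cells was not tested. Of 28 cell cycle genes 7 were higher and 5 lower under anti-IL-2, and 0 were higher and 7 lower under tacrolimus, where 4.89% and 3.23% of all genes were lower. The shares of all genes are not like for like with these counts. The list's median share was 49.4% of the other anti-IL-2 cells, against 2.44% over all genes. A gene in most of the other cells could not be 2-fold higher, while frequent genes could more readily be called lower. In anti-IL-2 endothelial-led cells the list's median share was 62.5%.

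The erythroid panel could choose few cells, since its 2 genes reach 3 only with a gene of another group. Both haemoglobin genes were above 0.7 in 8 anti-IL-2 cells, of which 2 were erythroid-led, 2 were macrophage-led and 4 had no panel gene besides, and in 0 tacrolimus cells. Hbb-bs, an adult beta globin outside the panel, was at 9.94 and 7.23 in the erythroid-led cells, which held 26 and 8 of 39 measured erythroid genes. The 4 cells left out all had Car2, a carbonic anhydrase, and Alas2, the first enzyme of haem synthesis in red cells, above 0.7. At least 20 of the 39 erythroid genes were above 0.7 in 10 anti-IL-2 cells, of which 1 was a non-T cell by the rule, and in 6 tacrolimus cells, of which 0 were. The rule therefore counted few of the cells richest in erythroid genes.

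Mixed cells, with at least 2 genes of another panel group, numbered 9 of 71 under anti-IL-2 and 2 of 55 under tacrolimus. A macrophage-led anti-IL-2 cell held 5 macrophage and all 4 endothelial panel genes, and 1 B and plasma-led cell in each library held 3 macrophage panel genes. These cells stayed in all counts given here.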

How the data were processed

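Spleen cells of 1 anti-IL-2 and 1 tacrolimus library were measured by 5′ single-cell RNA-seq. Per the submitters' processing notes, Cell Ranger 3.1.0, Seurat and build mm10 were used. The deposited values of 2000 genes per file are on a natural log scale, read from the values themselves. Tacrolimus values were whole UMIs scaled to 50000 per cell (100% of values above 0 within 0.001 of a whole UMI, totals 509 to 87844, median 12074). Anti-IL-2 values include negatives, the form batch integration gives although no source describes it, so no depth is known and no count model was used, which also affects their comparison with tacrolimus. The tacrolimus file repeated 308 identical anti-IL-2 columns, which were not used. Immunoglobulin segments and mitochondrial genes were not among the 2000 genes.

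Cells were grouped by the panel rule, and shares were computed with Python 3.11.15, numpy 2.4.6, pandas 2.3.3 and scipy 1.17.1 (seed 7 for thinning), with figures by matplotlib 3.10.9. The script was tested on simulated data. Intervals are exact Clopper-Pearson, and a count of 0 allows up to 3 cells. Named genes are the panel, the 12 with the largest thinned tacrolimus share ratio per lineage with at least 10 cells, and members of the gene lists. The members and lists were chosen with earlier results of these data known. Mixed cells were kept, and no doublet caller was run. Alternatives were other value, gene and panel minimums, other thinning depths, a 10% minimum share, mean levels, and leaving out cells with T-cell genes.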

Additional observations from a re-analysis of the deposited data

How the results depend on the processing

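No paired analysis was possible because each treatment had 1 library and the labels carry no replicate numbers. Shares of kept cells moved beyond their intervals as follows. With values above 0.35, anti-IL-2 non-T cells were 7.19% and macrophage-led cells 4.66%. Without a minimum of genes, non-T cells were 6.77% under anti-IL-2 and 4.98% under tacrolimus, and macrophage-led cells 4.26% and 3.55%. With at least 2 panel genes these were 7.76% and 6.71%, and 4.18% and 4.54%. With at least 4, non-T cells were 3.36% and 2.37%, anti-IL-2 B and plasma-led cells 0.821% and tacrolimus macrophage-led cells 0.881%, which are then fewer than B and plasma-led ones (13 and 15 cells). Without cells of at least 2 T-cell genes, non-T cells were 3.81% and 2.58%, macrophage-led cells 1.79% and 1.29%, and anti-IL-2 endothelial-led cells 0.224%. With anti-IL-2 panel genes above 2 (added after seeing the data), non-T cells were 3.43%, macrophage-led 1.79% and endothelial-led 0.0746%. A minimum of 300 genes left 0% erythroid-led.

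Counts of genes by the size rule moved over 1.5 times as follows. Under tacrolimus with a 10% minimum share, 216 were lower in B and plasma-led cells, 240 higher and 72 lower in macrophage-led cells, and 486 higher and 161 lower in endothelial-led cells. Unthinned, 171 were higher and 85 lower in macrophage-led and 413 higher in endothelial-led cells. Thinned to 2000 UMIs (added), 104 were higher and 67 lower in B and plasma-led cells, 31 lower in macrophage-led and 41 lower in endothelial-led cells. In macrophage-led cells 35 were lower at 3000 UMIs and 32 by mean UMIs per 10000. Without cells of at least 2 T-cell genes, 225 were higher and 121 lower in macrophage-led and 423 higher and 181 lower in endothelial-led cells. Under anti-IL-2, the 10% minimum gave 233 lower in B and plasma-led, 340 higher and 214 lower in macrophage-led and 181 lower in endothelial-led cells. Values above 2 (added) gave 56 lower, 72 lower and 199 higher in these lineages. Without cells of T-cell genes 257 were lower in macrophage-led and 166 in endothelial-led cells. Among values of single named genes 163 stayed within the exact interval of the main share, 28 moved beyond it and 1 changed sign. These intervals are wide with few cells, so a value within them can still differ much in size. In tacrolimus B and plasma-led cells at 2000 UMIs, Rhobtb1 fell from a share difference of 31.2 to 11.7 points. Dok3 fell from 24.9 to 11.7 points there, and both counted as within the interval. A530040E14Rik reversed to a share difference of -0.0704 points at 2000 UMIs. Fewer cells or other minimums are part of each alternative, and other causes were not tested. Few cells per lineage and unknown anti-IL-2 depth limit all these values.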
